A study of Mus musculus with 10 samples.

Results

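The count tables give reads per transcript under letters for its regions, and 1 of these letters, c, carries no name in the sources used here. The transcripts described here were chosen by their RNAseq reads on this region, with at least 50 region c reads summed over the 5 RNAseq libraries. There were 3288 of them, among 14509 transcripts with any region c entry and 22534 transcripts in the tables, and they came from 2036 genes and 2137 distinct regions. Their RNAseq level on region c is therefore given as a description without a test. Primary cortical cells from newborn (P0) FVB mice were cultured for 7 days as mixed neurons and glia. Cultures 1, 2 and 3 were untreated, and cultures 4 and 5 were depolarized with 55 mM KCl for 3 h. All cultures received cycloheximide before lysis, and each gave 1 RNAseq library and 1 ribosome footprinting (RF) library, which holds the RNA fragments that ribosomes protect from RNase. The cultures contain several cell types, and a further KCl replicate was dropped by the authors for its low library size.

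A ribosome normally releases its protein at the stop codon and leaves the mRNA, so that few footprints lie beyond it. In some mRNAs a tRNA is accepted at the stop codon instead, and the ribosome reads on in frame to the next stop codon, which adds a carboxy-terminal extension to the protein. This stop codon readthrough is known for a TGA stop followed by CTA, and it is known for Aqp4, the main water channel of astrocytes, for the cytosolic malate dehydrogenase Mdh1, for the stress kinase Mapk10 and for the angiogenic growth factor Vegfa.

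Region c was compared with annotated transcript sequences to find what it covers. Among transcripts with more than 500 RNAseq reads outside region c, 27 of 972 (2.78%) with under 30 nt between the annotated stop codon and the next in-frame stop codon had any region c read. With a distance of at least 33 nt, 5785 of 6052 (95.6%) had region c reads. The share was 0.415% at 24 nt, 8.89% at 27 nt, 17.0% at 30 nt and 90.4% at 33 nt. Across 7248 transcripts, Spearman's rho of region c reads with the distance to the next in-frame stop codon was 0.60. The same rho was 0.03 for the next stop codon in a frame shifted by 1 base (7134 transcripts) and -0.00 for a shift of 2 bases (7161 transcripts). These are descriptions across transcripts that share libraries and isoforms. Region c thus lay where the in-frame extension behind the stop codon lies, less about 15 nt at either end, and it is called region c throughout since this was inferred from sequence and not stated by the authors.

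**Figure D1:**
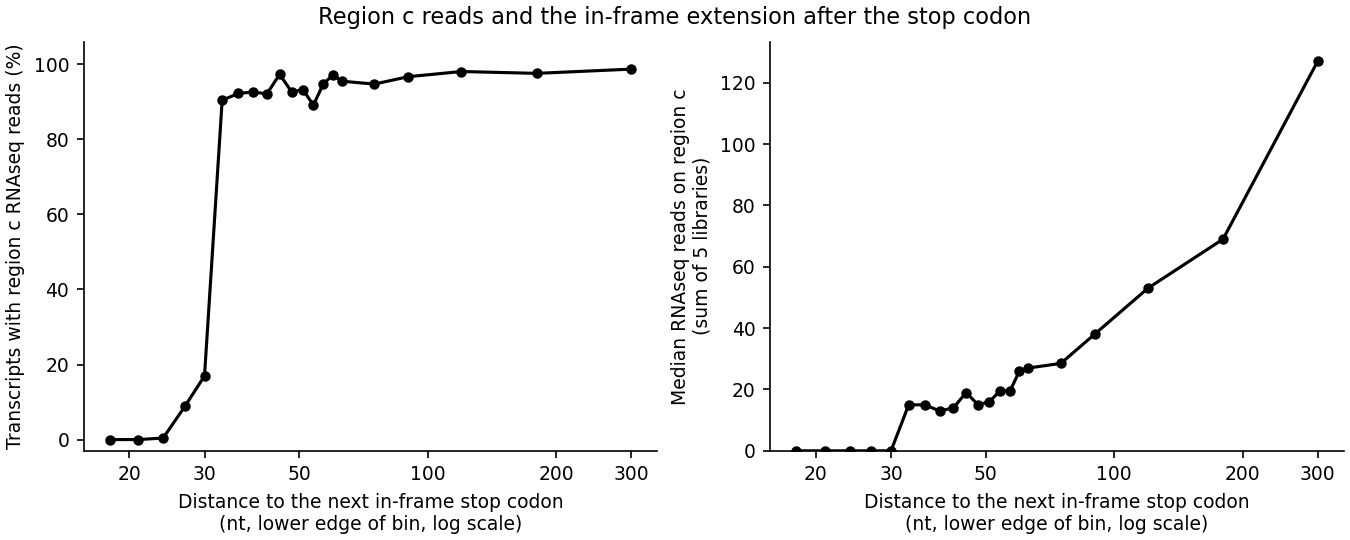
Transcripts with region c reads (left, percent) and median RNAseq reads on region c (right, sum of 5 libraries) against the distance from the annotated stop codon to the next in-frame stop codon (nt, log scale, lower edge of each bin), for transcripts with more than 500 reads elsewhere. The share rises from 17.0% at 30 nt to 90.4% at 33 nt, and the median rises from 15 reads at 33 nt to 127 at 300 nt and above.

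Stop codons of transcripts that the results turn on, except Aqp4, are shown with 12 bases on either side, in capitals, from GENCODE transcript sequences with GRCm38 positions of the stop codon. Region c lies behind each of them, in the part annotated as 3′UTR of the transcript. Mdh1, Mapk10 and Vegfa, like Aqp4, carry a RefSeq annotation that reads the stop codon as an amino acid. Mlc1, Slc11a2 and Fgfr1 have the same 6 letters TGACTA as Mdh1 and Mapk10.
Mdh1, chr11:21557443-21557445, minus strand: ctctcctctgcgTGActagacactcgt
Mapk10, chr5:102913185-102913187, minus strand: ggttgttgcaggTGActagccgcctgc
Vegfa, chr17:46018858-46018860, minus strand: aagccaaggcggTGAgccaggctgcag
Mlc1, chr15:88957022-88957024, minus strand: caaatggcccagTGActacaggataaa
Slc11a2, chr15:100389084-100389086, minus strand: gtggtgtccagaTGActaacagcccag
Fgfr1, chr8:25573919-25573921, plus strand: ctcaaacggcgcTGActaccaaccctg

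The next set had many footprints behind the stop codon although no annotated CDS covers that stretch. Tmsb4x has a second stop codon directly after its first.
Plat, chr8:22782104-22782106, plus strand: aacatgaagcaaTGAcaaagaaagccc
Dlx1, chr2:71532516-71532518, plus strand: cctcaactgatgTGAggttatcagttc
Smim7, chr8:72567793-72567795, minus strand: ctgttcggctctTGAgtcctgcgtgga
Nrxn2, chr19:6532146-6532148, plus strand: gagtattacgtcTGAgcacccagtcca
Pea15a, chr1:172198626-172198628, minus strand: ccaaagaaggccTGAacaagggggagg
Tmsb4x, chrX:167207501-167207503, minus strand: gctggcgaatcgTAAtgaggcgagcgc

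The last set passed the test of the KCl change in RF, within limits given below. Nnat is shown beside them because its region c is also coding sequence of another of its transcripts.
Apoe, chr7:19696380-19696382, minus strand: caggagaatcaaTGAgtatccttctcc
Igfbp2, chr1:72852160-72852162, plus strand: caaagtgtgcagTAAaccccagccagt
Timm9, chr12:71123552-71123554, minus strand: ggccagccacggTAGagaggtcctgag
Tsc22d1, chr14:76506672-76506674, plus strand: ggatcaaccgcaTAGcctcctaggccc
Gpm6a, chr8:55058927-55058929, plus strand: aatgcgtacacaTAAatacgcttctct
Nnat, chr2:157561290-157561292, plus strand: cattgcgagaagTGAggtgttcaggta

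Of the 3288 transcripts, 3244 (98.7%) were annotated as protein coding, 4 as retained intron, 4 as processed transcript and 1 as a target of nonsense-mediated decay, and 35 were not matched to the annotation. A stop codon was found for 3245, an in-frame extension for 3228 and a stretch long enough to hold region c for 3220. In 73 a second stop codon follows the first directly. Reads on all 3 other regions were present for 2157 transcripts, while 192 had no CDS read and 126 no 3′UTR read. In 705 genes more than 1 transcript was counted, up to 24 in 1 gene, and such isoforms share reads and are not replicates.

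Counted once per distinct region, the extension had a median length of 117 nt, with quartiles of 75 and 183 nt and a range from 6 to 909 nt. The RNAseq reads on region c had a median of 110, with quartiles of 72 and 211 and a maximum of 13727, which is a median of 6.72 CPM (reads scaled to library size). RF reads on region c had a median of 1, with quartiles of 0 and 3 and a maximum of 3794. Region c held a median of 11.1% of the RNAseq reads of its transcript and 0.0596% of its RF reads. At the minimum, Tubgcp3, Ppp2r5d and Man1a had 50 RNAseq reads and 0, 1 and 2 RF reads, and the excluded Sez6, Ppard and Ap1m1 had 49 RNAseq reads and 3, 0 and 1 RF reads.

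The RNAseq libraries held between 3056286 and 3629959 reads, of which between 5.82% and 6.16% lay on region c. The RF libraries of untreated cultures 1, 2 and 3 held 7719915, 6551613 and 1463654 reads and those of KCl cultures 4 and 5 held 1608235 and 3120710, with between 0.190% and 0.234% on region c. Between 529 and 1326 of the 3288 transcripts had an RF read on region c in a library, so that single values carry few reads or none in the 2 shallowest libraries, untreated culture 3 and KCl culture 4. The 5 astrocyte markers summed to between 7629 and 8807 RNAseq CPM in untreated and between 6755 and 7162 in KCl cultures. The neuronal markers (7 of 8 in the tables) summed to between 359 and 508 CPM in untreated and between 458 and 467 CPM in KCl cultures. The sums were between 661 and 764 and between 631 and 644 CPM for the oligodendrocyte lineage, between 85.8 and 105 and between 64.6 and 89.1 CPM for microglia, and between 422 and 503 and between 354 and 405 CPM for fibroblasts, untreated before KCl each time. Endothelial markers stayed at or below 6.05 CPM in every library. In such bulk cultures fewer cells of a type and less RNA per cell cannot be told apart.

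The 8 genes with the highest region c level in RNAseq include Vim, an intermediate filament protein, Tuba1a, an alpha tubulin, Apoe, the main lipid carrier secreted by astrocytes, and Mt2, a metal-binding protein. Vim had 2781, 2707 and 2623 region c reads in untreated cultures 1, 2 and 3, against 2724 and 2892 after KCl. RF gave 13, 7 and 2 reads on the same stretch, against 2 and 3 after KCl. The KCl and untreated values of Vim overlap in both assays. Ckb, the brain creatine kinase, Tmsb4x, which binds actin monomers, Cfl1, which severs actin filaments, and Cst3, a secreted protease inhibitor, made up the rest of these 8, with between 6939 and 8006 RNAseq reads each. The CDS of Tuba1a and Ckb is listed without reads in both assays, so that region c could not be set against the CDS for them. Region lengths differ between genes, so these reads give no order of expression.

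To ask how many footprints region c carried for its amount of RNA, the share of RF reads that lay on region c was divided by the share of RNAseq reads that lay on the same region. Region length cancels in this ratio, and values are pooled over the 3 untreated cultures unless a culture is named. Over all 2137 distinct regions the ratio was 0.0291, beside 2.08 on the CDS and 0.00486 on the 3′UTR of the same transcripts, which both lie outside region c. No RF read was found on 822 regions (38.5%), and 120 regions had at least 20. The transcripts fell into 3 groups with very different ratios, by what the annotation says about region c.

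The largest group had no annotated coding sequence on region c, neither by position nor by a shared stretch of 25 bases, and held 2942 transcripts of 1893 genes (1900 distinct regions). These regions had 503800 RNAseq and 6175 RF reads over all 5 cultures. Pooled over the untreated cultures, the ratio was 0.0104, beside 2.12 on the CDS and 0.00370 on the 3′UTR. Per culture the ratio was 0.0102, 0.0105 and 0.0117 in the untreated cultures, against 0.00791 and 0.00801 after KCl, and that on the 3′UTR was 0.00354, 0.00333 and 0.00645 and then 0.00255 and 0.00260. In each of the 5 cultures region c lay above the 3′UTR and far below the CDS. In this group 762 regions (40.1%) had no RF read and 60 had at least 20.

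In the second group, 271 transcripts of 159 genes (167 distinct regions), region c was also annotated as coding sequence of another transcript or shared 25 bases with one. Over all 5 cultures these regions had 50026 RNAseq and 13386 RF reads. In the untreated cultures the ratio was 0.197, beside 1.63 on the CDS. Footprints in this group cannot be told apart from footprints on the other coding sequence, since reads that map to several transcripts were kept. A further 68 transcripts had no stretch that could be placed and are counted only in the totals.

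Stop codons that RefSeq reads as an amino acid were found in 7 transcripts of 4 genes, a list that was made after the counts had been seen. Their 4 distinct regions had 1112 RNAseq and 934 RF reads on region c over all 5 cultures. The ratio in the untreated cultures was 0.781, beside 5.41 on the CDS and 0.00291 on the 3′UTR. The group is dominated by Aqp4, which alone had 870 of the RF reads.

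**Figure D2:**
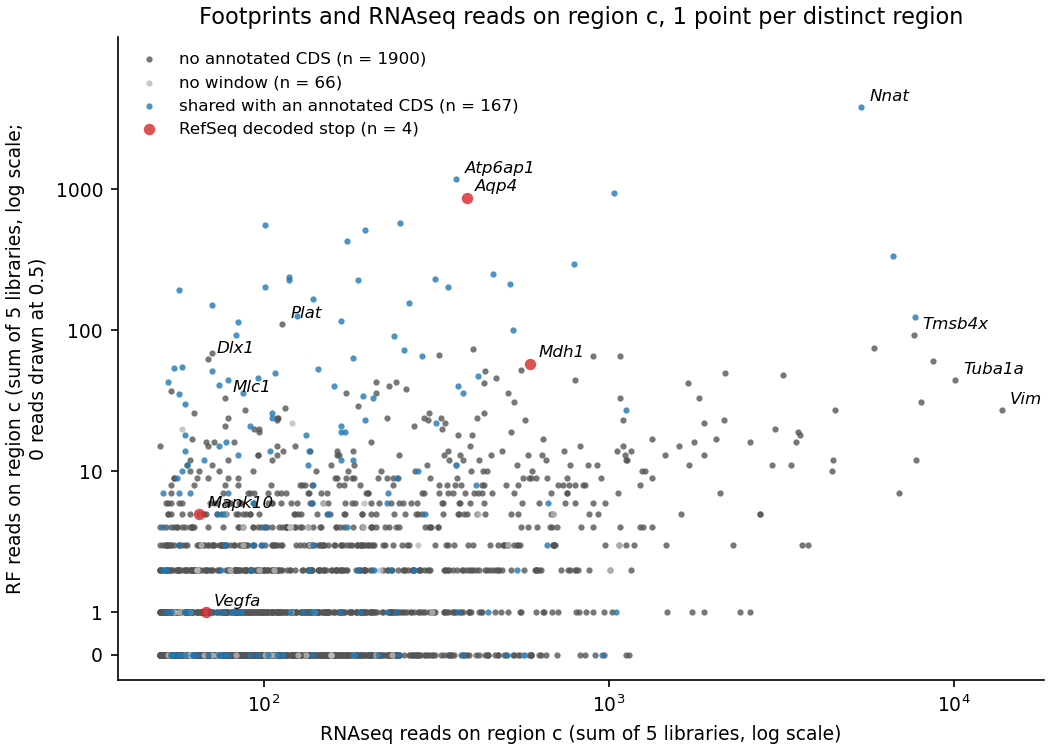
RF reads on region c against RNAseq reads on region c, both summed over 5 libraries on log scales, with regions without an RF read drawn at the bottom. Each point is 1 of 2137 distinct regions, coloured by group. Aqp4, with 387 RNAseq and 870 RF reads, lies among the blue regions that are also annotated as coding sequence, while most of the 1900 grey regions have few or no RF reads.

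Aqp4, on chromosome 18, has an extension of 84 nt behind its TGA. On region c it had 108, 78 and 67 RNAseq reads in untreated cultures 1, 2 and 3, against 60 and 74 after KCl. RF gave 307, 413 and 74 reads on the same stretch, against 22 and 54 after KCl. The ratio of RF to RNAseq was 1.90 on region c, 9.75 on the CDS and 0.00259 on the 3′UTR, so that the region c ratio was 19.5% of that on the CDS. Mdh1 had 100, 103 and 116 RNAseq and 20, 29 and 2 RF reads on region c in the untreated cultures, and its region c ratio of 0.0970 was 3.37% of its CDS ratio. Mapk10 had 5 RF reads over all libraries, with 65 RNAseq reads, and Vegfa had 1, with 68 RNAseq reads. At this depth the ratios of these last 2 rest on single reads.

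The 6 letters TGACTA stand at the stop codon of 74 of all listed transcripts with a stop codon found (0.339%) and of 19 of the transcripts described here (0.586%), read on the sense strand. They belong to 9 genes: Aqp4, Ccser2, Eif4ebp2, Fgfr1, Mapk10, Mdh1, Mien1, Mlc1 and Slc11a2. The 5 distinct regions of this kind without an annotated coding sequence had a ratio of 0.0688 in the untreated cultures. Over all 5 cultures they had 62 RF reads. In the same group without an annotated coding sequence, the ratio was 0.00755 behind TAA (481 regions), 0.0131 behind TAG (426), 0.0115 behind TGA (993) and 0.0177 behind TGA followed by C (217). Behind a double stop codon it was 0.00985 (43 regions). Mlc1, a membrane protein of astrocyte endfeet, gave 33 of the 62 reads. It had 16, 9 and 5 RF reads in the untreated cultures, against 2 and 1 after KCl, and 18, 13 and 11 and then 14 and 21 RNAseq reads. Slc11a2, an iron transporter, had 13, 17 and 11 RNAseq reads on region c, against 33 and 38 after KCl. It rose with a log2 change of 1.36 (SE 0.38, adjusted p = 0.0063, edgeR). Slc11a2 reached the minimum of RNAseq reads only through the KCl cultures, with 41 reads in the untreated cultures together. The size and call of its rise are thus tied to how it was chosen. This call was lost without KCl culture 4 (adjusted p = 0.059) or KCl culture 5 (0.075), and RF gave 6 reads in all. The ratios by stop codon are pooled over transcripts of unequal depth and carry no test.

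Within the group without an annotated coding sequence, 50 of the 60 regions with at least 20 RF reads also had CDS reads in both assays. Their region c ratio had a median of 4.26% of the CDS ratio and reached 32.6% in Dlx1, and in 13 it was at least 10%. Against the 3′UTR of the same transcript, the ratio on region c had a median of 8.69 times that value over 50 regions, with 23 at 10 times or more and the highest, 177 times, in Mlc1. These 60 regions were chosen for their footprints, so the values describe them and are not support for a difference.

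Plat, the tissue-type plasminogen activator, had the most footprints of this group, with 49, 41 and 6 RF reads on region c in the untreated cultures, against 10 and 5 after KCl. RNAseq gave it 26, 26 and 15 reads and then 22 and 24, a pooled ratio of 0.869 on region c beside 7.23 on the CDS. Dlx1, a homeobox factor of interneuron development, had 19, 17 and 6 RF reads and then 6 and 14, on an extension of 345 nt. Smim7, a small membrane protein, had 29, 29 and 7 RF reads in the untreated cultures, against 0 and 4 after KCl, and a ratio of 0.939 on region c beside 7.23 on the CDS. Nrxn2, a presynaptic adhesion molecule, has the longest extension of the group, 909 nt, and had 29, 18 and 12 RF reads and then 4 and 11. Pea15a, an astrocyte phosphoprotein, had 26, 29 and 4 and then 5 and 3. Eef1a1, Cd24a, Brk1, Apoe and Tmsb4x had between 60 and 92 RF reads on region c but between 900 and 8666 RNAseq reads, so that their ratios stayed at or below 0.0679. The 10 genes with the most footprints in this group were listed after the counts had been seen.

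Among all 3288 transcripts, 7 of the 8 genes with the most RF reads on region c belonged to the group whose region c is coding sequence elsewhere, and the other was Aqp4. Nnat, an imprinted membrane protein of the developing brain, had 1305, 888 and 323 RF reads in the untreated cultures, against 403 and 875 after KCl. Atp6ap1, an accessory subunit of the vacuolar proton pump, had 430, 403 and 84 and then 88 and 171. S100a1, Fhl1, Tusc3, Rps9 and Por followed, with between 425 and 933 RF reads each. In each of these 7 genes, region c shared bases with another coding sequence of the same gene.

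KCl stimulation was compared first in RNAseq. With edgeR's quasi-likelihood test, adjusted over all 30140 regions of all transcripts that had enough reads, 223 of the 3288 transcripts rose on region c (140 genes) and 87 fell (58 genes). This is 6.78% higher and 2.65% lower, beside 9.47% and 7.26% of all tested regions (16.7% in either direction). The median log2 change on region c was 0.01, beside -0.02 over all regions. With library totals in place of TMM, which moved the median of all regions by -0.10 (-0.11 in RF), 169 rose and 144 fell, so that the excess of rises depends on the scaling. Called or not, 658 of the 3288 (20.01%) had both KCl cultures above all untreated cultures and 512 (15.6%) had both below, against 21.4% and 21.5% of all regions. Every transcript passed the minimum of 50 reads by the way it was chosen. The KCl cultures reached it without the untreated ones doing so in 109 transcripts, and the untreated cultures without the KCl ones in 700, so that such transcripts were favoured to differ. At a stricter limit, 2213 transcripts had at least 10 reads in every library.

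The largest rises were those of 6 genes, among them Nr4a2, Crem, Nfil3 and Fosl2, transcription factors known to respond to neuronal activity. Nr4a2, an orphan nuclear receptor, had 2, 1 and 4 region c reads in the untreated cultures, against 41 and 47 after KCl, a log2 change of 4.16 (SE 0.51, adjusted p = 1.2e-10, edgeR). Crem, a cAMP-responsive factor, had 0, 9 and 1 and then 43 and 34 (log2 change 3.49), and Rorb, a nuclear receptor of cortical layer identity, had 5, 3 and 1 and then 30 and 35 (3.38). Both KCl cultures lay far above all untreated cultures in these 3 genes. Nfil3, a leucine zipper repressor, had 13, 12 and 16 and then 114 and 100 reads (2.96), Fosl2, an AP-1 factor, 5, 7 and 3 and then 29 and 46 (2.86), and Ifrd1, a transcriptional coregulator, 14, 22 and 25 and then 153 and 129 (2.79). RF gave no region c read for Nfil3, Fosl2 and Ifrd1, 1 for Nr4a2 and 3 each for Crem and Rorb. Of these 6 genes, Nr4a2, Crem, Rorb, Fosl2 and Nfil3 reached the minimum only through the KCl cultures, with 7, 10, 9, 15 and 41 reads in the 3 untreated cultures together, so that their size and test are tied to how they were chosen. The call of Crem was lost with DESeq2 (adjusted p = 0.17). The log2 changes of the other 5 stayed at 2.56 or above in the 7 alternatives run for single genes.

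The largest falls on region c were those of Klhdc8a, Ccl2, Klf13, Trim47, S1pr3 and Mrrf. Klhdc8a, a kelch-domain protein, had 28, 35 and 23 reads in the untreated cultures, against 0 and 3 after KCl, a ratio of 0.0485 (95% interval from 0.00981 to 0.147, counting error only). Ccl2, a chemokine that recruits monocytes, had 12, 47 and 43 and then 1 and 8 reads, with a log2 change of -2.91 (SE 0.54, adjusted p = 1.5e-05, edgeR). Klf13, a zinc-finger factor, had 34, 31 and 27 and then 6 and 8 (-2.12), and S1pr3, a receptor for sphingosine-1-phosphate, had 36, 37 and 21 and then 6 and 9 (-2.05). All KCl values lie below all untreated values in these 4 genes, which reached the minimum through the untreated cultures and not through the KCl ones. The same holds for Trim47, with 53 reads in the untreated and 8 in the KCl cultures together. The size and calls of these falls are thus tied to how they were chosen. Trim47, a ubiquitin ligase (19, 11 and 23 and then 3 and 5 reads, -2.12), kept its call except without KCl culture 4 (adjusted p = 0.11). Mrrf, the mitochondrial ribosome recycling factor (22, 8 and 14 and then 3 and 4 reads, -2.03), had adjusted p-values between 0.0844 and 0.147 with DESeq2, without untreated culture 1 and without either KCl culture. Ccl2 lost its call with DESeq2 (adjusted p = 0.0653). Mt2 fell from 1987, 1883 and 1776 reads to 936 and 1113 on region c, a log2 change of -0.88 (SE 0.15, adjusted p = 1.3e-06, edgeR). The 7 alternatives run for single genes gave values between -0.99 and -0.84.

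In RNAseq, region c moved with the CDS of the same transcript. The CDS was tested for 274 of the 310 transcripts called, and its log2 change had the same sign in 271 of them, with 197 of the CDS called as well. The 3 others belong to Atp6v1d and Npdc1, whose CDS was not called. A test of the change on region c relative to the CDS, added after the counts had been seen, called 1 of 2961 transcripts. This was Cpe, a carboxypeptidase of secretory granules, with 598, 510 and 578 region c reads and then 972 and 821, while its CDS had 2395, 2215 and 2036 and then 2278 and 2201. Its log2 change relative to the CDS was 0.65 (SE 0.12, adjusted p = 0.020, edgeR).

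Of genes on the list of activity-regulated factors, 8 of 24 in the tables had region c reads above the minimum. Crem, Dusp1, Nr4a2 and Per1 rose, none fell, and the median log2 change of the 8 was 1.16, beside 9.47% higher and 7.26% lower and a median of -0.02 over all regions. Crem, Dusp1, Fos and Nr4a2 reached the minimum only through the KCl cultures where they were high. Neither the count nor the median is therefore support for a rise of the list. Dusp1, a phosphatase of MAP kinases, had 11, 18 and 15 and then 59 and 48 reads (log2 change 1.86), and Fos had 17, 11 and 13 and then 31 and 22 (0.96, adjusted p = 0.10, edgeR). Jun and Junb did not pass the test, with log2 changes of 0.61 and 0.82. Of splicing regulators, 19 of 78 genes in the tables were present. Hnrnpl, Rbm38, Rbmxl1, Son, Srsf7 and Tra2a rose and none fell, beside the same shares of all regions and 6.78% and 2.65% of the 3288 transcripts, and the median log2 change was 0.68. These genes too were chosen by their reads over all cultures, and the values are a description. Srsf7, which binds exonic splicing enhancers, had 16, 12 and 24 and then 47 and 38 reads (1.29), and its region c is coding sequence of another transcript. The call of Srsf7 was lost without KCl culture 4 (adjusted p = 0.17). Of the list of imprinted and nuclear noncoding RNAs only Snrpn was present (0.42, not called), and the lists of small RNA hosts, structured RNAs, mitochondrial RNAs and pseudogenes had no gene with enough region c reads.

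In RF, 179 of the 3288 transcripts (119 genes) had at least 20 region c reads and were tested. Of these, 7 transcripts of 6 genes rose and 22 transcripts of 10 genes fell (edgeR, adjusted over 28089 regions), which is 3.91% and 12.3%, beside 9.24% and 9.35% of all tested regions (18.6% in either direction). Called or not, 28 of the 179 (15.6%) had both KCl cultures above all untreated cultures and 57 (31.8%) had both below, against 21.8% and 24.5% of all regions. The untreated libraries hold most of the RF reads, and 109 of the 179 reached the minimum through them and not through the KCl libraries, against 2 the other way, which favours falls. These counts and the medians that follow describe the transcripts tested and not all 3288. The median log2 change of the 96 tested transcripts without an annotated coding sequence on region c was -1.12, and that of the 77 whose region c is coding sequence elsewhere was 0.02, beside -0.04 over all regions. In the former 13 transcripts of 4 genes had no read in either KCl library. Setting them to their bound could not move the median, since the bounds also lie below it. In the former 2 transcripts of 2 genes rose and 16 transcripts of 6 genes fell, and in the latter 5 transcripts of 4 genes rose and 5 transcripts of 3 genes fell, to be read against the 9.24% and 9.35% above. Without KCl culture 5 there were 2 calls, 1 of them among the 29, without KCl culture 4 there were 6 and without untreated culture 1 there were 13, and DESeq2 called 3.

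Aqp4 fell on region c in RF, with a log2 change of -1.57 (SE 0.23, adjusted p = 1.2e-05, edgeR). The 7 alternatives run for single genes, DESeq2 and each culture left out included, gave values between -1.79 and -1.29. On its CDS, RF gave 10635, 8553 and 2123 reads in the untreated cultures, against 2637 and 5169 after KCl, which is a rise with a log2 change of 0.38 (SE 0.08, adjusted p = 9.4e-04, edgeR). The log2 change in RNAseq was -0.33 (SE 0.24, adjusted p = 0.39) on region c and -0.37 (SE 0.16, adjusted p = 0.10) on the CDS. Footprints on region c were 3.73% ± 0.994 (SD, n = 3) of those on the CDS without KCl and 0.939% ± 0.149 (SD, n = 2) with it, which is 3.97-fold lower. Each untreated culture lay above both KCl cultures, the shallow untreated culture 3 included. The exact two-sided permutation test used here gave p = 0.2, the smallest it can give for 3 against 2 cultures. Among other astrocyte markers, the log2 change of CDS footprints was 0.03 for Gfap, 0.26 for Slc1a3, 0.16 for Aldh1l1 and 0.38 for Aldoc, while the summed RNAseq level of astrocyte markers was lower in both KCl cultures, as given above. The part of cell composition in the result was not tested.

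The same question was put to all transcripts with at least 20 RF reads on both regions by testing the KCl change on region c relative to that on the CDS, with culture as a block. This test was added after the fall of Aqp4 had been seen. Of the transcripts described here, 170 (111 genes) could be tested, most of which reach the minimum on region c through the untreated libraries, which favours lower values after KCl. After adjustment over all 286 transcripts tested, 12 transcripts of 4 genes were lower and 1 was higher. This is beside 4.2% and 0.35% of all tested, 4.55% in either direction, and all of these calls were among the transcripts described here. The lower ones were those of Aqp4 (-1.94, SE 0.35, adjusted p = 8.0e-06, edgeR), Apoe, Igfbp2 and Tsc22d1, and Gpm6a was higher. Apoe, Igfbp2 and Tsc22d1 reached the minimum on region c only through the untreated libraries, and Gpm6a only through the KCl ones. DESeq2 called none (19 at an unadjusted p under 0.05) and gave Aqp4 a log2 change of -1.96 with an adjusted p of 0.13. The other alternatives kept Aqp4 past the threshold. The counts fell to 3 without untreated culture 2 and to 1 without KCl culture 4 or KCl culture 5. Mdh1 had 2 and 5 RF reads in the KCl cultures, and its change relative to the CDS was -1.28 (SE 0.64, adjusted p = 0.36). Mlc1 gave -1.64 (SE 0.88, adjusted p = 0.39). As a percent of CDS footprints, region c of Mdh1 and of Mlc1 also lay lower in both KCl cultures than in each untreated culture. For Mdh1 the means were 0.748% without KCl and 0.330% with it, which is 2.27-fold lower. The exact two-sided permutation test gave p = 0.2 for Mdh1 as well.

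**Figure D3:**
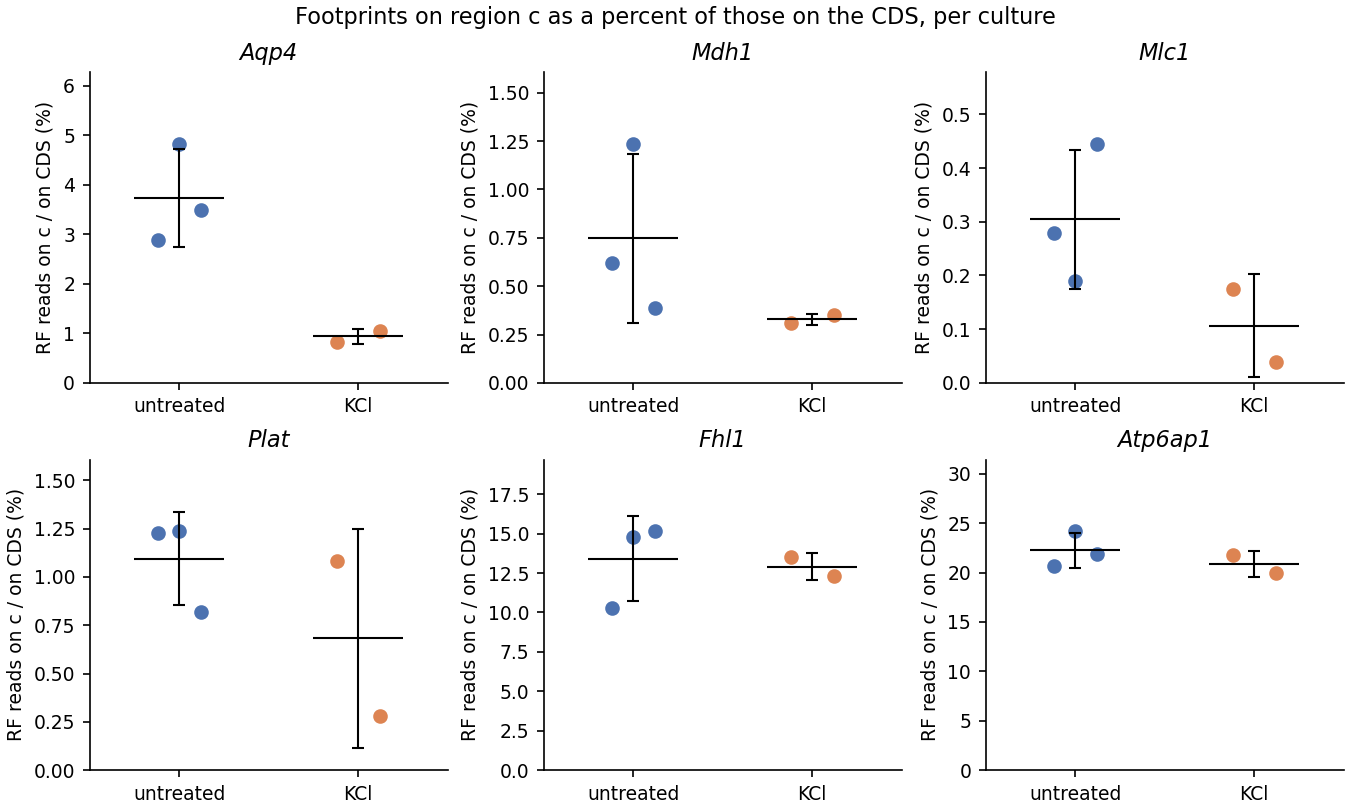
RF reads on region c as a percent of RF reads on the CDS in each culture (points), with the mean (line) and SD (bars, n = 3 untreated and n = 2 KCl) on axes that start at 0. Aqp4 goes from a mean of 3.73% to 0.939% without overlap. On few reads, Mdh1 (0.748% to 0.330%) and Mlc1 (0.305% to 0.107%) also go lower without overlap. Fhl1 and Atp6ap1, whose region c is coding sequence of another transcript, have 13.4% and 12.9% and 22.3% and 20.9%, with overlap.

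The falls in RF on regions without an annotated coding sequence rest on few reads. Apoe had 21, 36 and 2 RF reads on region c in the untreated cultures, against 0 and 1 after KCl, a ratio of 0.0564 (95% interval from 0.00140 to 0.327, counting error only), with 0.50 as the log2 change on its CDS (adjusted p = 3.6e-05, edgeR). Igfbp2, which binds insulin-like growth factors, had 15, 5 and 3 and then 0 and 0 reads, at least 2.30-fold lower. Tsc22d1, a leucine zipper protein, had 6, 14 and 4 and then 0 and 0 reads, at least 2.40-fold lower, in 8 transcripts that share their counts. Timm9, a chaperone of the mitochondrial intermembrane space, had 14, 10 and 2 and then 0 and 0 reads, at least 2.60-fold lower, and S1pr3 had 13, 10 and 1 and then 0 and 0, at least 2.40-fold lower. In untreated culture 3, whose depth is close to that of KCl culture 4, these 5 genes had between 1 and 4 reads. The bounds take 3 reads over both KCl libraries. Smim7 had a log2 change of -2.20 (SE 0.70, adjusted p = 0.027, edgeR). Smim7 and the 5 genes above reached the minimum of 20 RF reads only through the untreated libraries, which favours falls. Their size and calls are thus tied to how they were chosen. The calls of these 6 genes were lost with DESeq2 (adjusted p between 0.10 and 0.21), without KCl culture 4 (between 0.097 and 0.21) and without KCl culture 5 (between 0.056 and 0.33). Those of Timm9, S1pr3, Igfbp2 and Smim7 were also lost without untreated culture 1 (between 0.053 and 0.14), those of Tsc22d1 and S1pr3 without untreated culture 2 (0.097 and 0.054), and those of Tsc22d1 and Igfbp2 without untreated culture 3 (0.051 each). S1pr3 fell on its CDS as well, by 2.15 on the log2 scale (adjusted p = 1.1e-13, edgeR), and in RNAseq. Falls on regions that are coding sequence elsewhere were those of Dynll2, a dynein light chain (87, 48 and 9 reads, against 8 and 4 after KCl), Id1, an inhibitor of basic helix-loop-helix factors (141, 83 and 32, against 15 and 24), and Fam19a5, a secreted brain protein (23, 15 and 1, against 1 and 0). Dynll2 and Fam19a5 also reached the minimum only through the untreated libraries. All 3 genes lie outside the rule for named genes and were added after their values had been seen. Their adjusted p-values of 0.020, 0.035 and 0.046 (edgeR) rose to between 0.14 and 0.27 with DESeq2 and to between 0.38 and 0.57 without KCl culture 5.

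Rises in RF were those of Gpm6a, Tuba1a, 2410004P03Rik, Nnat, Por and Fhl1. Gpm6a and Tuba1a reached the minimum of 20 RF reads only through the KCl libraries. The size and test of their rises are thus tied to how they were chosen. Gpm6a, a membrane glycoprotein of neurons, had 5, 5 and 4 RF reads on region c in the untreated cultures, against 8 and 14 after KCl, with a log2 change of 2.36 (SE 0.64, adjusted p = 0.0087, edgeR). Tuba1a had 7, 10 and 2 and then 4 and 21 (2.11, adjusted p = 0.0099), and without KCl culture 5 its log2 change was 1.11 (adjusted p = 0.60), while DESeq2 (0.091) and leaving out untreated culture 1 (0.067) also ended the call. Nnat rose by 0.76 (SE 0.14, adjusted p = 3.8e-04, and 0.052 without KCl culture 5), on a region c that is coding sequence elsewhere, and its change relative to the CDS was 0.36 (adjusted p = 0.62). Fhl1, a muscle and brain LIM protein, had 178, 189 and 40 and then 59 and 107 reads, a change of 0.54 (adjusted p = 0.047) beside 0.56 on its CDS. Por, which passes electrons to cytochrome P450 enzymes, had 167, 111 and 20 and then 43 and 84 reads (0.66, adjusted p = 0.034). 2410004P03Rik had 13, 17 and 5 and then 14 and 23 reads (1.87, adjusted p = 0.0036), also on a region c that is coding sequence elsewhere. Its CDS rose by 0.75 (adjusted p = 0.0015, edgeR), and its change relative to the CDS was 1.12 (adjusted p = 0.36, edgeR). Except in Gpm6a, the untreated and KCl values of these genes overlap in raw reads because of unequal depth. In all of these genes they separate once scaled to library size. The call of Gpm6a was lost with DESeq2 (adjusted p = 0.061), without untreated culture 1 (0.067) and without KCl culture 4 (0.079) or KCl culture 5 (0.13). The calls of 2410004P03Rik, Por and Fhl1 were lost without KCl culture 4 (adjusted p = 0.061, 0.16 and 0.24) and KCl culture 5 (0.073, 0.28 and 0.24), and those of Por and Fhl1 also with library totals (0.074 and 0.11), with DESeq2 (0.14 and 0.18) and without untreated culture 3 for Por (0.052) or untreated culture 1 for Fhl1 (0.20).

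**Figure D4:**
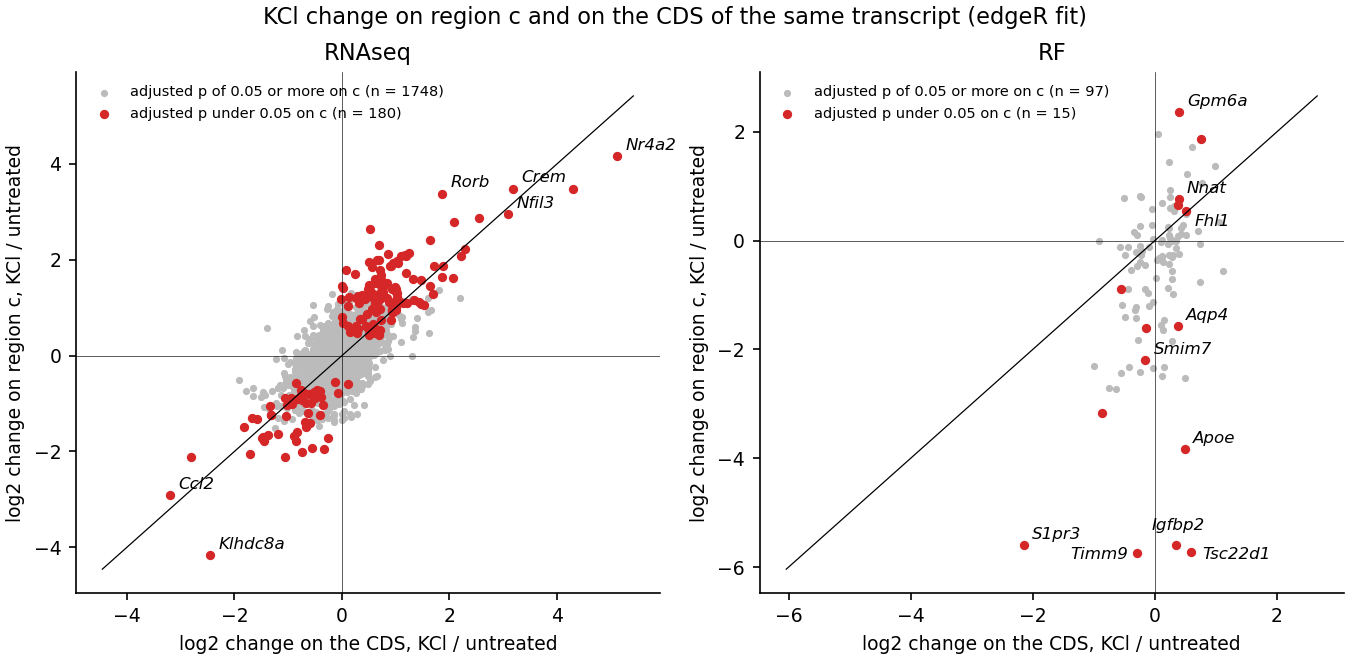
log2 change after KCl on region c against that on the CDS of the same transcript in RNAseq (left, 1928 distinct regions, 180 called) and RF (right, 112 regions, 15 called), with the line of equal change. In RNAseq the called regions lie along the line, while in RF several called regions, Aqp4 among them, lie below 0 on region c and above 0 on the CDS. The lowest fitted values in RF belong to Timm9, Tsc22d1, S1pr3 and Igfbp2, which have no KCl read, and are not bounds.

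Of the 28 transcripts called in RF whose CDS was tested, 16 had the same sign on the CDS and 12 the opposite sign. The CDS was called in the opposite direction for 8 of them, from Apoe, Aqp4, Igfbp2 and Tsc22d1. When the KCl change in RF was set against that in RNAseq with culture as a block, 5 of 179 transcripts (2.79%) were called, beside 1.38% of all tested regions (0.402% higher and 0.975% lower). Tuba1a (log2 change 1.60, adjusted p = 0.048) and Gpm6a (2.81, adjusted p = 0.016) were higher, and Apoe (adjusted p = 0.012) and 2 transcripts of Timm9 (adjusted p = 0.049) were lower. Each reached the RF minimum only through the libraries in which it was high, so these calls are tied to how the transcripts were chosen. The call of Tuba1a held in 0 of 7 alternatives, and those of Gpm6a, Apoe and Timm9 in 2, 3 and 1. Aqp4 had a change of -1.23 (SE 0.35, adjusted p = 0.0502). No call remained with DESeq2, without KCl culture 5 or without untreated culture 2, where 25, 20 and 43 of 179 passed 0.05 before adjustment (42 in the fit of all cultures).

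Finally, region c was taken as a share of all footprints of its transcripts in each culture. In the group without an annotated coding sequence on region c the share was 0.117%, 0.132% and 0.146% in the untreated cultures, against 0.0909% and 0.0955% after KCl. For its 60 regions with at least 20 RF reads the share was 0.284%, 0.334% and 0.337% and then 0.197% and 0.201%. For the other 1840 regions it was 0.0863%, 0.0954% and 0.111% and then 0.0715% and 0.0759%. Both KCl cultures lay below all untreated cultures in each subset. The 60 regions were picked by RF reads, most of which lie in the untreated libraries, which favours a lower share after KCl there. The two-sided permutation test used for Aqp4 can give no p below 0.2 with these cultures. In the group whose region c is coding sequence elsewhere the share was 4.42%, 4.36% and 4.70% and then 4.63% and 4.62%, and the cultures overlapped. The 3′UTR ratio in the group without an annotated coding sequence, given above, was also lower in both KCl cultures than in the untreated ones, while the CDS ratio was 2.19, 2.07 and 2.04 in the untreated cultures, against 2.32 and 2.19 after KCl.

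**Figure D5:**
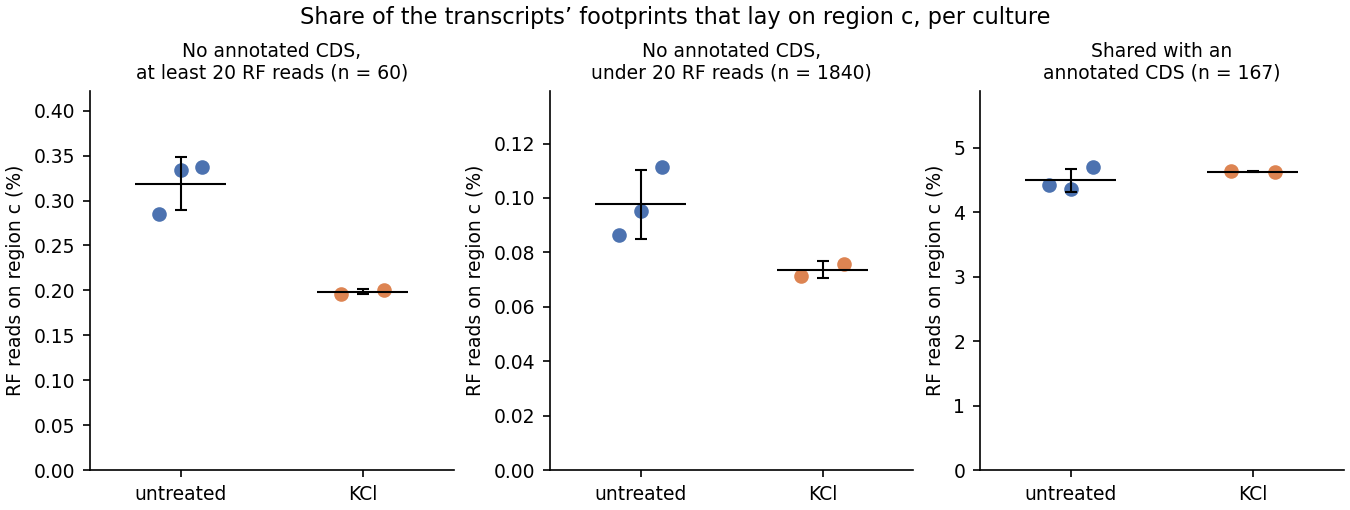
Share of the footprints of a group of transcripts that lay on region c (percent), per culture (points) with the mean (line) and SD (bars, n = 3 untreated and n = 2 KCl), on axes that start at 0. The KCl cultures lie below the untreated ones in both sets of regions without an annotated coding sequence, and among the untreated ones where region c is coding sequence elsewhere.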

How the data were processed

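RNAseq and RF libraries of 5 mouse cortical cultures were used (3 untreated, 2 KCl). The authors used Trimmomatic 0.32 for trimming and STAR 2.3.1z8 to remove rRNA, aligned to an mm10 transcriptome with Bowtie2 2.2.2 keeping multi-mapped reads, and deposited raw counts of reads per transcript region made with bedtools 2.20.1. The authors' edgeR results were not used. CPM and the ratios given here were computed from these counts. Counts were matched to GENCODE and RefSeq annotations of GRCm38 (22177 of 22534 transcripts). The letters of the 5′UTR, CDS and 3′UTR were taken over from an earlier assignment by read shares and annotated lengths, and the place of region c was inferred from transcript sequences.

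Tests used edgeR 4.0.16 in R 4.3.3 (quasi-likelihood, robust dispersions, TMM within each assay) on all regions with at least 50 RNAseq or 20 RF reads over 5 libraries, with Benjamini-Hochberg adjustment over all regions tested. Standard errors were obtained by dividing the log2 change by the root of F. RF relative to RNAseq was tested as an interaction with culture as a block. The scripts were tested on simulated counts. Alternatives were library totals, DESeq2 1.42.0, other minimums, summed regions, 1 transcript per gene, a single fit and each culture left out. Single-gene changes within an assay or between assays were followed only through library totals, DESeq2 and each culture left out. The replicates are separate cultures, and p-values measure the spread between them.

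Culture numbers pair the libraries because, per the labels, the RNAseq portion was taken from the lysate used for RF. Deviations of paired libraries from their group means correlated with r between -0.068 and 0.022 over 15176 regions. Treatment groups share no culture number.

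The genes named are the 8 with the highest RNAseq level and the 8 with the most RF reads on region c. They also include the 6 largest rises and falls per test among those with an adjusted p under 0.05 and KCl values outside the untreated ones. Up to 6 genes per gene list and 3 on each side of the minimum of 50 reads complete them, each by the transcript with the most RNAseq reads. The transcripts, lists and tests were chosen with earlier results of these data known. The genes with a RefSeq decoded stop codon or TGACTA, the 10 genes with the most footprints and no annotated coding sequence, Cpe and the test of region c relative to the CDS were chosen after the counts had been seen. Python 3.11.15, pandas 2.3.3, numpy 2.4.6, scipy 1.17.1 and matplotlib 3.10.9 were used for the rest.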

Additional observations from a re-analysis of the deposited data

How the results depend on the processing

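The count of transcripts called in RNAseq, 310 as reported, was 151 with DESeq2, 915 with all regions of a transcript summed, 193 with 1 transcript per gene and 16 of 179 tested in a single fit of 10 libraries, and between 137 and 295 with a culture left out (137 without KCl culture 4 and 165 without KCl culture 5). In RF, 29 as reported became 3 with DESeq2, 13 with filterByExpr, 13 with a minimum of 50 RF reads, 14 with 1 transcript per gene and 1191 with regions summed, and between 2 and 20 with a culture left out. Summed regions are mostly CDS and 3′UTR, so the counts under that choice are about whole transcripts.

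For RF relative to RNAseq, 5 with culture as a replicate block, 5 transcripts were called with no replicate block, 4 of them the same. The count was 2 with library totals, 0 with DESeq2, 1 with no filter beyond 1 read, 2 with filterByExpr, 118 with regions summed and 2 without robust dispersions, and between 0 and 11 with a culture left out. For region c relative to the CDS in RF, a test added after the data had been seen, 13 became 0 with DESeq2, 2 with a minimum of 50 RF reads on both regions, 3 with 1 transcript per gene and 1 on RNAseq reads, was 13 with no replicate block, and lay between 1 and 14 with a culture left out.

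A minimum of 20 RNAseq reads gave 5878 transcripts in place of 3288. The RF to RNAseq ratio of all regions, 0.0291, was 0.0316 in untreated culture 3 and 0.102 over regions with at least 20 RF reads. Without an annotated coding sequence, 0.0104 became 0.0117 in untreated culture 3, 0.00791 and 0.00801 in the KCl cultures and 0.0219 over regions with at least 20 RF reads. For decoded stop codons, 0.781 became 1.07 in untreated culture 2, and 0.224 and 0.296 in the KCl cultures. The cause of these shifts was not tested.

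Of the values of single genes under alternatives, 801 kept their side of the threshold, 101 lost it, 8 gained it and none that was called changed direction. Most lost calls (72) came from leaving out a culture. RF depth limits what can be seen on region c, where a median region had 1 footprint over 5 libraries.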
